A study of Mus musculus with 8 samples.

Results

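Genomic regions that carried a 5-hydroxymethylcytosine (5hmC) peak on every sampled day of OSNK reprogramming, and in no other library of the series, numbered 3717 of the 222732 regions found in all. They are called OSNK-only regions here. They were chosen from the peak lists themselves. The peaks of all 8 lists were merged where they overlapped or touched, and a region counted as present in a list if any peak of that list covered 1 bp or more of it. An OSNK-only region was present on the OSNK days D1, D3 and D5 and absent from 5 excluded lists, namely mouse embryonic fibroblasts (MEF), induced pluripotent stem cells (iPSC) and D1, D3 and D5 of OySyNyK. The rule was met by 1.67% of all regions, and by 8.44% of the 44056 regions present on the 3 OSNK days. Presence and absence are therefore a description of the choice, and the counts and shares of regions given below describe these lists without a test.

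The series holds 8 mouse libraries with 1 library per group and no replicate. MEF were the starting cells, and the protocols name OG2-MEFs, fibroblasts that carry a reporter of Oct4 expression. Intermediates were sampled after induction with OSNK (Oct4, Sox2, Nanog and Klf4) or OySyNyK (the same factors, with a YAP transactivation domain fused to Oct4, Sox2 and Nanog but not to Klf4), and vitamin C and LIF were in the medium used to make iPSC. The iPSC library has a title naming the OySyNyK factors, no OSNK-derived iPSC library was analysed here, and the iPSC were kept on growth-arrested MEF feeder cells, whose share of the captured DNA is not given. The reading of these abbreviations is general knowledge and not from the labels. The labels do not say how many cultures were pooled. No DNA-based check of cell identity was made.

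5hmC arises when a TET dioxygenase oxidises 5-methylcytosine. It can be a step on the way to unmethylated cytosine or a lasting mark, and in many cell types it is found at enhancers and along gene bodies. TET enzymes take part in reprogramming to pluripotency. Here 5hmC in sheared DNA was given a sugar carrying a chemical tag, and tagged fragments were pulled down and sequenced, and each peak is a stretch in which the peak caller found more fragments than its background model allows. The score of a peak is read here as 10 times the negative log10 of its p-value, the form in which the peak caller MACS writes it. The lists do not name it, and this reading rests on the lowest value of 50 in each list. It grows with enrichment, width and sequencing depth alike, and is not an amount of 5hmC. With 1 library per group no test between groups is possible. Intervals given below are exact (Clopper-Pearson) 95% intervals for counting error, and they treat regions as independent, which neighbouring regions are not.

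The lists held between 54938 and 116302 peaks, covering 41.1 to 98.2 Mb, and sequencing depth is unknown. Over the 3 days the OSNK lists had 116302, 89497 and 92762 peaks, more than the MEF list with 65776 and the iPSC list with 54938. OySyNyK had 100951, 93694 and 70592 peaks. The length of a list cannot be told apart from the method behind it.

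By median score, OSNK-only regions stood near the middle of their own peak lists, but below all regions on the 3 OSNK days. Their scores ran from 50.0 to 647 at D1 with a median of 94.4, from 50.04 to 448 at D3 with a median of 92.6, and from 50.0 to 433 at D5 with a median of 75.7. The medians lay above 44.4%, 50.9% and 44.5% of all peaks of the D1, D3 and D5 lists, so they were close to the middle of each list. Those lists also hold peaks of regions not called on all 3 days. Over all regions on the 3 OSNK days the median scores were higher, at 172, 135 and 106. Taking the weakest day of each region, the median was 63.1, against 85.3 over all regions present on the 3 OSNK days. Of the 3717 regions, 2206 reached a score of 60 on all 3 days (59.3%, against 80.3% of all regions on the 3 OSNK days), and 1088 reached 75 (29.3%, against 60.1%). A score of 100 on all 3 days was reached by 350 (9.42%, against 39.3%) and one of 200 by 12 (0.323%, against 10.3%). OSNK-only regions were thus weaker than the regions on the 3 OSNK days at large, in the median of each day and on their weakest day.

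**Figure D1:**
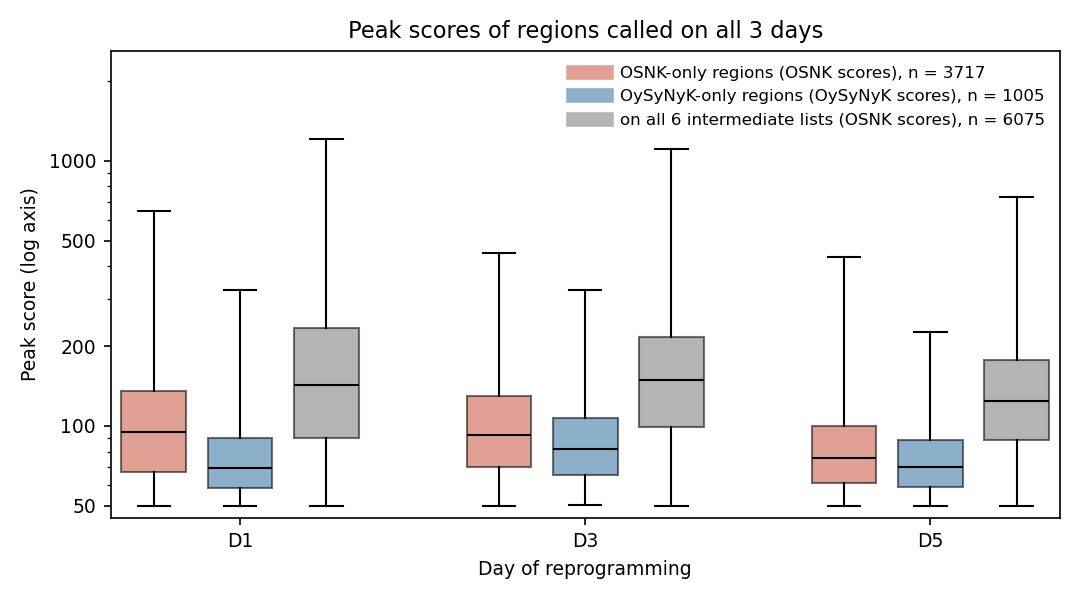
Peak scores (log axis) on D1, D3 and D5 for the 3717 OSNK-only regions, the 1005 regions found in the same way with OySyNyK only, and the 6075 regions called on all 6 intermediate lists but in neither MEF nor iPSC. Boxes give the quartiles and the median, and whiskers reach the lowest and highest region; OSNK-only medians are 94.4, 92.6 and 75.7, below the 143, 149 and 125 of the regions shared by both methods.

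Regions that both methods shared had higher OSNK scores and longer OSNK peaks. The 6075 regions present on all 6 intermediate days and absent in MEF and iPSC had median OSNK scores of 143, 149 and 125. Their OSNK peaks covered a median of 791, 1071 and 803 bp per region on D1, D3 and D5, against 649, 843 and 590 bp in OSNK-only regions. OSNK-only regions had a median width of 918 bp, with quartiles of 750 and 1216 bp and a range of 380 to 4120 bp. The 1005 regions that met the mirrored rule, present on the 3 OySyNyK days and in none of the other 5 lists (0.451% of all regions), were narrower (median 801 bp) and had lower scores in their own libraries, with medians of 69.1, 81.99 and 69.8. On each day the median score of the OSNK-only regions stood between those of these sets.

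The peaks of the 3 days overlapped in most OSNK-only regions, about as often as in other regions. In 3603 of 3717 (96.9%, interval 96.3 to 97.5) at least 1 bp was covered on all 3 days, against 97.8% of all regions on the 3 OSNK days. The stretch covered on all 3 days had a median of 487 bp, or 55.6% of the region, against 52.9% over all regions. A single peak per day made up 3461 regions (93.1%, against 76.8%). The D3 peaks were the longest, with a median of 843 bp against 649 bp at D1 and 590 bp at D5, and they filled 97.1% of the region in the median. The OSNK D3 list had the widest peaks of all 8 lists, with a median of 911 bp, so the length at D3 is shared with its library. In the remaining regions no base was covered on all 3 days.

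The 10 OSNK-only regions with the highest weakest-day score were distributed over 9 chromosomes. The first of them, on chromosome 5 at positions 72658893 to 72660559, scored 514 at D1, 436 at D3 and 298 at D5. It was 1667 bp wide, 1388 bp of it were covered on all 3 days, and the nearest excluded peak, an iPSC peak, lay 3068 bp away. The region on chromosome 6 at positions 146365411 to 146367680 scored 257, 347 and 261, with its maximum on D3. On chromosome 9, positions 62917193 to 62919827 scored 375, 303 and 253, in falling order. All 3 regions scored far above 50 on every OSNK day.

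At some of the strong regions an excluded peak lay just beyond the edge. The region on chromosome 11 at positions 11781947 to 11784068 scored 260, 335 and 238, and an OySyNyK D1 peak lay 59 bp away. On chromosome 1, positions 33551728 to 33552937 scored 521, 234 and 270, and an OySyNyK D1 peak lay 51 bp away. Both would fail a rule that asks for no excluded peak within 1 kb. The others of the 10 kept their distance, between 1076 bp on chromosome 9 and 13169 bp for the region on chromosome 3 from 142683499 to 142685622, which scored 204, 329 and 224. The region on chromosome 8 at positions 8361285 to 8363332 had the highest D1 score of the 10, 644, then 221 and 233, and its nearest excluded peak was 7940 bp away.

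Scores of OSNK-only regions were on the whole lower at D5 than at D1, as they were in the libraries at large. The median ratio of the D3 to the D1 score was 0.985, and that of the D5 to the D1 score 0.832. Over all regions on the 3 OSNK days these ratios were 0.789 and 0.641. The D5 score was at least 1.5 times lower than the D1 score in 1294 OSNK-only regions (34.8%, interval 33.3 to 36.4), against 52.0% of all regions on the 3 OSNK days. It was at least 1.5 times higher in 471 (12.7%, interval 11.6 to 13.8), against 12.5%. The share with a higher D5 score was thus close to the background, and the share with a lower one was below it. With equal numbers of peaks in all lists, 3.05% were higher (interval 2.24 to 4.05), against 5.19% of all regions (4.91 to 5.48). Lower were 54.2%, against 62.9%. The share with a higher score was then below the background. In that setting the lowest score kept was 110.18 at OSNK D1 and 72.49 at OSNK D5. A 1.5-fold drop was thus open even to regions at the D1 floor. These shares are therefore not comparable with those of the full lists. In the full lists, 745 regions (20.0%, against 15.3%) were at least 1.5 times higher at D3 than at D1. A further 848 (22.8%, against 39.5%) were at least 1.5 times lower. Among the mirrored OySyNyK regions, 14.7% were higher at D5 than at D1 by this measure and 15.6% lower, against 10.4% and 51.8% of all regions on the 3 OySyNyK days. At D3 the mirrored shares were 25.6% higher and 9.35% lower, against 17.5% and 31.9%.

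That difference turned round once regions of equal D1 strength were compared. A region with a D1 score under 75 cannot drop 1.5 times and stay above 50, and 1248 OSNK-only regions began there. Among regions with a D1 score of 100 to 150, 55.5% of the 951 OSNK-only regions were at least 1.5 times lower at D5 (interval 52.3 to 58.7), against 38.2% of all 8068 such regions and 22.5% of the 1353 shared by both methods. With a D1 score of 150 to 200 the shares were 77.8%, 59.8% and 41.7%, and with 200 to 300 they were 89.4%, 74.9% and 61.5%. Increases showed the opposite order. With a D1 score of 75 to 100, 9.68% of OSNK-only regions were at least 1.5 times higher at D5 (interval 7.69 to 12.0), against 24.3% of all and 37.7% of the shared regions. At a given D1 score, OSNK-only regions therefore had lower D5 scores than the others. The bins of D1 score were set after the values had been seen. The scores come from the peaks that chose the regions, so these shares describe the set and were not tested.

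The order over the days varied from region to region. The highest score fell on D1 in 1629 regions (43.8%), on D3 in 1371 (36.9%) and on D5 in 717 (19.3%). Over all regions on the 3 OSNK days these shares were 58.6%, 25.1% and 16.3%. Scores ran downward from day to day in 1071 OSNK-only regions (28.8%, against 42.5% of all) and upward in 433 (11.6%, against 10.1%). The largest increase was on chromosome 7 at positions 71414910 to 71416123, with scores of 58.6, 145 and 265, a D5 to D1 ratio of 4.52. On chromosome 3, positions 99038328 to 99040112 scored 79.2, 212 and 354, a ratio of 4.48. Both climbed on each day and ended above the upper quartile of the D5 scores, 100.1.

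The largest decreases were steeper still. On chromosome 3, positions 146663381 to 146665057 scored 647 at D1, 245 at D3 and 62.5 at D5, a ratio of 0.0966. That D1 score is the highest of all OSNK-only regions. Positions 98312624 to 98313696 on chromosome 5 scored 438, 180 and 55.9, and positions 74075701 to 74077278 on chromosome 9 scored 473, 237 and 67.7. The region on chromosome 10 from 55181235 to 55182590, with scores of 409, 213 and 59.1, was the most isolated of these, with no excluded peak within 43877 bp. All 5 regions with the smallest ratios had their D3 score between those of D1 and D5, so the decrease ran through the whole series of days. At D5 they scored between 50.5 and 67.7.

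OSNK-only regions were the last step of a graded series of regions, set by how many days of OySyNyK also called them. Of the 18581 regions present on the 3 OSNK days and absent in MEF and iPSC, 3717 (20.0%) were called on no OySyNyK day, 3608 (19.4%) on 1 day, 5181 (27.9%) on 2 and 6075 (32.7%) on all 3. Median weakest-day OSNK scores along this series were 63.1, 66.5, 73.3 and 93.6. The more OySyNyK days called a region, the higher was its median OSNK score. OSNK-only regions stood at the weak end, next to regions called on 1 OySyNyK day.

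The share of regions missed by the other method depended on strength with both methods, and was higher for OSNK at each strength below 200. Only regions called on the 3 days of a method and absent in MEF and iPSC are counted here. With a weakest-day score of 50 to 60, 30.7% of 4927 OSNK regions were on no OySyNyK day (interval 29.4 to 32.0), against 15.0% of 3663 OySyNyK regions on no OSNK day (13.9 to 16.2). With 75 to 100 the shares were 17.8% (16.6 to 19.0) and 5.12% (4.25 to 6.11). With 100 to 150 they were 8.74% (7.79 to 9.77) and 1.65% (1.05 to 2.46). Strong OSNK regions absent in MEF and iPSC were rarely OSNK-only: of 614 with at least 200 on every day, 12 were (1.95%, interval 1.01 to 3.39). Of 130 such OySyNyK regions, 0 were on no OSNK day (interval 0 to 2.80), so the intervals overlap at this strength. With MEF and iPSC regions included, 4558 regions on the 3 OSNK days reached 200 on every day. The OySyNyK lists held fewer peaks than the OSNK lists at D1 and D5. They covered less sequence on all 3 days, at D3 74.3 Mb against 98.2 Mb. A given score need not stand for the same enrichment in 2 libraries.

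**Figure D2:**
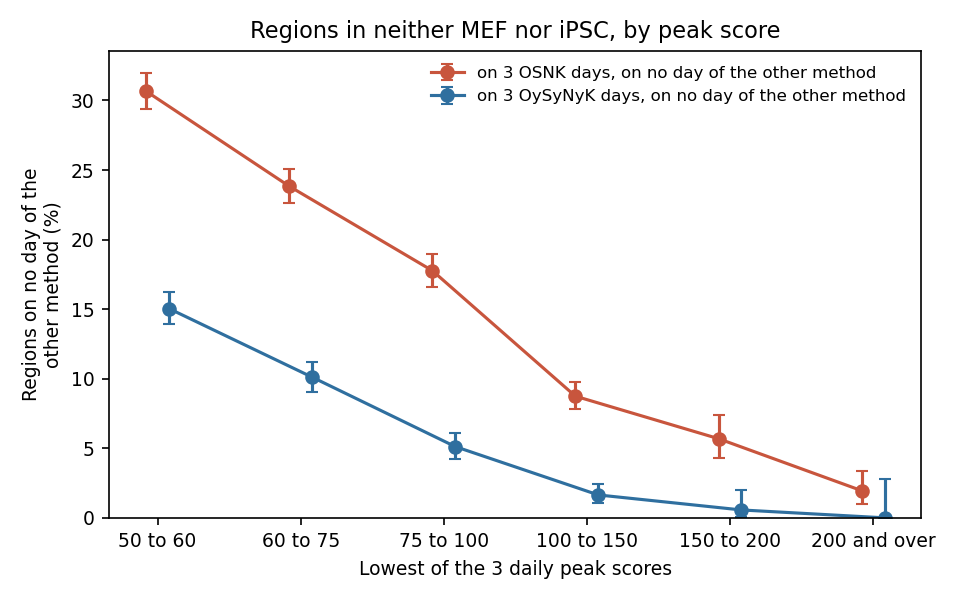
Share of regions called on the 3 days of one method, and in neither MEF nor iPSC, that were called on no day of the other method, by the lowest of the 3 daily scores. Points are shares with 95% exact intervals; the OSNK share goes from 30.7% at 50 to 60 to 1.95% at 200 and over, and lies above the OySyNyK share in each of the first 5 bins.

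OSNK-only regions outnumbered their OySyNyK counterparts by 3.70 to 1. They made up 8.44% of the regions on the 3 OSNK days (interval 8.18 to 8.70), and the 1005 mirrored regions made up 2.92% of the 34378 on the 3 OySyNyK days (2.75 to 3.11). With equal numbers of peaks in all lists, the counts were 1508 and 592, a ratio of 2.55, and with equal numbers of 500-bp peaks the ratio was 2.20. The direction was kept in these settings. Membership changed: only 677 of the 3717 OSNK-only regions were among the 1508. Both rules exclude the iPSC list, whose title names the OySyNyK factors. That list alone kept out 228 regions on the 3 OSNK days and 455 on the 3 OySyNyK days. The ratio without it was not computed.

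Few of the regions found with OSNK alone were called on all 3 days. Such rates were not computed for all regions with an OSNK peak, so the OSNK rates below have no background. In all, 46152 regions had a peak on at least 1 OSNK day and in no other list, and 3717 of them (8.05%, interval 7.81 to 8.31) had one on all 3 days. D1 alone accounted for 15827 (34.3%), D3 alone for 6467 (14.0%) and D5 alone for 10487 (22.7%). D1 with D3 gave 4315, D3 with D5 gave 3826 and D1 with D5, skipping D3, gave 1513. Of regions called on D1 and D3, 46.3% were called again on D5 (interval 45.2 to 47.4). With OySyNyK, 1005 of 27646 regions found with that method alone (3.64%, interval 3.42 to 3.86) were called on all 3 days, and 36.3% of those on D1 and D3 were called again on D5 (34.5 to 38.1). Method-only regions were thus called again less often with OySyNyK, whose D5 list was also the shorter, with 70592 peaks against 92762.

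**Figure D3:**
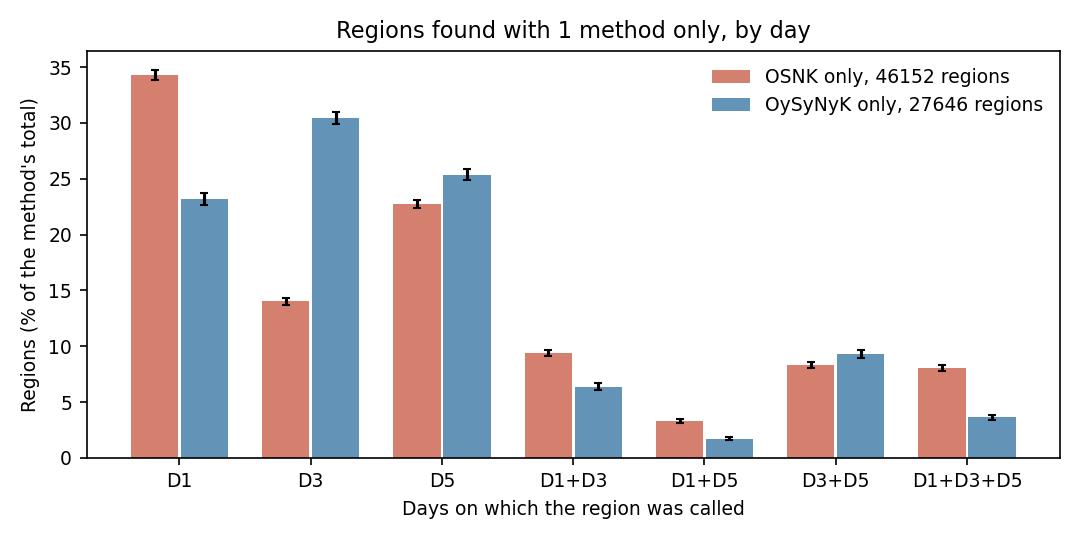
Regions found with 1 method only, as a percentage of that method's total (46152 for OSNK, 27646 for OySyNyK), by the days on which they were called, with 95% exact intervals. Regions on all 3 days make up 8.05% with OSNK and 3.64% with OySyNyK, and single days make up most of the rest.

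Some regions failed the rule through a single excluded list. Of the 44056 regions on the 3 OSNK days, 4120 (9.35%) had a peak in exactly 1 of the 5 excluded lists. That list was OySyNyK D1 in 1808 (43.9%), OySyNyK D3 in 1316 (31.9%), OySyNyK D5 in 484, MEF in 284 and iPSC in 228. The best peak of that list had a median score of 70.6 and a highest of 502, and in 1182 regions (28.7%) it scored under 60. Just outside the rule stood positions 101209896 to 101210820 on chromosome 15, with OSNK scores of 155, 71.5 and 162 and an iPSC peak of 50.01. Positions 53647542 to 53648673 on chromosome 4 scored 121, 126 and 131 and failed through an OySyNyK D1 peak of 50.02. Such regions missed the rule by less than 1 score unit of 1 peak.

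On the inner side of the rule, the distance to excluded peaks was often short. The gap between an OSNK-only region and the nearest peak of any excluded list had a median of 2524 bp, with quartiles of 844 and 7106 bp. In 1043 regions (28.1%, interval 26.6 to 29.5) it was 1 kb or less. OySyNyK D1 had a peak within 1 kb of 15.3% of the regions, OySyNyK D3 of 14.3%, OySyNyK D5 of 9.85%, MEF of 9.71% and iPSC of 5.89%. The closest cases were positions 108610684 to 108611738 on chromosome 13, 4 bp from an OySyNyK D5 peak, and positions 90745699 to 90746262 on chromosome 7, 5 bp from a MEF peak. Within 10 kb, 3038 regions (81.7%) had an excluded peak. These gaps were not computed for all regions, so short gaps are not read as a trait of OSNK-only regions. The mirrored OySyNyK regions lay closer to excluded peaks, with a median gap of 1481 bp, and the lists that exclude them hold more peaks.

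The surroundings of OSNK-only regions were richer in other regions found with OSNK alone. For 34.8% of OSNK-only regions (interval 33.3 to 36.4) the next region along the chromosome was also found with OSNK only, on any day, against 20.7% of all regions in the genome. The next region held an OySyNyK peak in 50.3% (48.7 to 51.9), against 60.9% of all regions, and a MEF peak in 23.6% (22.2 to 25.0), against 28.1%. It was itself an OSNK-only region on all 3 days in 121 cases, 3.26% (2.71 to 3.88), where 1.67% of all regions are. The mirrored OySyNyK regions showed a like excess, with 0.995% (0.478 to 1.82) beside 0.451% of all regions. OSNK-only regions thus tended to lie beside further 5hmC called with OSNK and not with OySyNyK, and 1 library per day stands behind each list.

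OSNK-only regions were found on all 20 chromosomes. As a share of the regions on the 3 OSNK days, they were most frequent among autosomes on chromosome 13, with 238 of 2266 (10.5%, interval 9.27 to 11.8), chromosome 6, with 180 of 1776 (10.1%, 8.77 to 11.6), and chromosome 1, with 314 of 3159 (9.94%). The lowest shares were on chromosome 11, with 177 of 2911 (6.08%, 5.24 to 7.01), chromosome 7, with 157 of 2476 (6.34%, 5.41 to 7.37), and chromosome 5, with 195 of 2796 (6.97%, 6.06 to 7.98). The X chromosome held 14 of 118 (11.9%, 6.64 to 19.1), an interval too wide to place it. The intervals of chromosomes 13 and 11 do not overlap, a difference that 20 chromosomes gave many chances to find. With equal numbers of peaks they did overlap, at 7.50% (6.05 to 9.19) and 5.02% (3.997 to 6.20), as they did with equal numbers of 500-bp peaks, at 7.71% (6.21 to 9.45) and 5.29% (4.21 to 6.54). For the mirrored OySyNyK regions the shares on chromosomes 13 and 11 were 3.59% (2.73 to 4.64) and 3.20% (2.56 to 3.95), in the same order and with overlapping intervals.

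**Figure D4:**
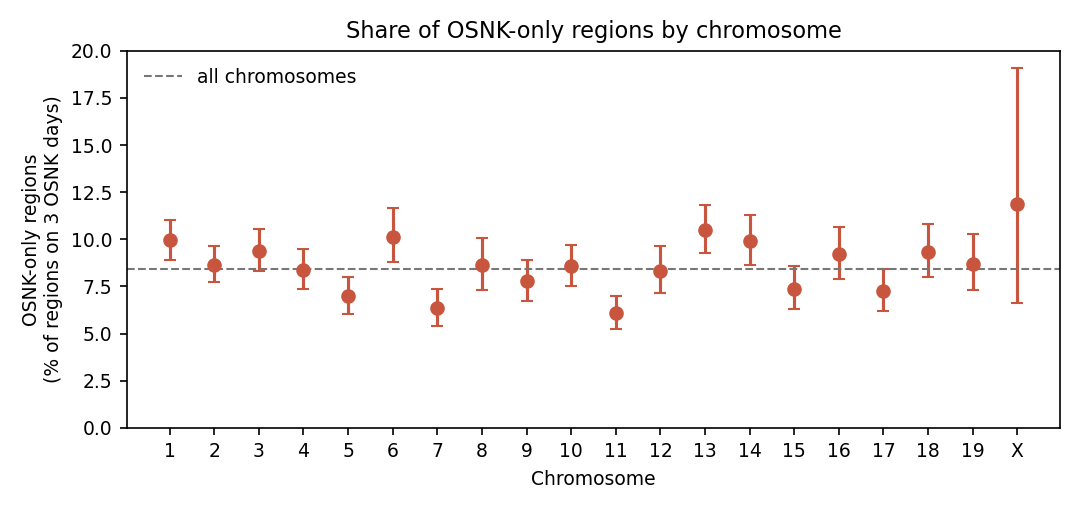
OSNK-only regions as a percentage of all regions present on the 3 OSNK days, by chromosome, with 95% exact intervals and the value over all chromosomes (8.44%, dashed). Chromosome 13 is at 10.5% and chromosome 11 at 6.08%; the interval of X, with 14 regions, reaches from 6.64% to 19.1%.

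Most OSNK-only regions had no other one within 10 kb. The median gap between an OSNK-only region and the nearest other one was 104615 bp, and 377 (10.1%) had another within 10 kb. Such spacings were not computed for any other set. They therefore do not say whether OSNK-only regions cluster more or less than other regions. In fixed windows of 100 kb, 2574 regions stood alone in theirs, 874 were in windows with 2, and 269 (7.24%, interval 6.42 to 8.12) were in windows with 3 or more. The fullest windows held 6 on chromosome 14 and 5 on chromosome 19, and no other window held more than 4. The 3094 windows with an OSNK-only region were 15.7% of the 19683 windows that held any region.

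A 100-kb window on chromosome 2, chosen because earlier results of these data had shown far more OSNK than OySyNyK cover there, held only 2 OSNK-only regions. OSNK peaks covered 25.3%, 45.5% and 31.8% of it on D1, D3 and D5, and OySyNyK peaks 12.998%, 11.1% and 4.34%. Positions 52807759 to 52808530 scored 50.4, 61.9 and 55.9, just over the threshold on each day. Positions 52828615 to 52829692 scored 53.1, 103 and 193, with a D5 to D1 ratio of 3.64. OySyNyK peaks lay 431 and 434 bp from them, so that neither remained with a rule that asks for 1 kb. Together the pair gave no more than 4.92% of the window's OSNK cover on any day.

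The rest of that window's OSNK cover came from regions that other lists also called, or that OSNK called on fewer days. The window held 45 regions, of which 44 had an OSNK peak and none had an OySyNyK peak without an OSNK peak. Of the 19 regions on all 3 OSNK days, 16 had a peak on at least 1 OySyNyK day and 7 in MEF, and only 3 were called on all 6 intermediate days. OSNK alone called 10 regions on 1 day and 7 on 2 days. Positions 52877079 to 52878777 scored 159, 364 and 244 and were absent from OySyNyK and MEF, but an iPSC peak of 57.0 kept them out. Positions 52845321 to 52847477 scored 96.6, 361 and 387, against OySyNyK scores of 68.9 at D3 and 54.1 at D5. Most of the OSNK cover thus lay outside the OSNK-only regions.

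A window on chromosome 19, from 16500001 to 16600000, held many regions found with OSNK alone. No other 100-kb window, apart from the next one on the chromosome with the same number, held as many of them. OSNK peaks covered 11.98% of it at D1, 34.3% at D3 and 32.4% at D5, while OySyNyK peaks covered 2.86%, 4.05% and 2.10%, MEF 1.90% and iPSC 2.89%. Of its 36 regions, 25 were found with OSNK alone and 5 of these on all 3 days. The strongest of the 5, at positions 16572287 to 16573251, scored 193, 228 and 191, and an OySyNyK D3 peak lay 223 bp away. Positions 16584678 to 16586086 scored 85.4, 144 and 171, while positions 16593131 to 16594525 scored 178, 64.2 and 57.0. Members of one window thus went in opposite directions over the days. OSNK cover was higher than in any other library on all 3 days.

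The 6 OSNK-only regions on chromosome 14, between 47400001 and 47500000, were weaker. Their weakest-day scores lay between 51.9 and 90.3, and none of them was left with a score of at least 100. OSNK cover there was 13.8%, 17.2% and 10.2%, and OySyNyK cover was 6.80%, 10.3% and 7.98%, so the methods differed little at D5. Of the 15 windows with 4 OSNK-only regions, the 3 in which these regions covered the most sequence are described. On chromosome 1, the window from 108400001 held no iPSC peak. OSNK cover was 13.6%, 23.5% and 16.1% against 4.14%, 3.32% and 2.18% with OySyNyK and 4.78% in MEF. The widest of the 4, at positions 108445357 to 108447772, scored 109, 316 and 115.

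The others were on chromosomes 3 and 4. On chromosome 3, from 137700001, OSNK cover was 11.8%, 13.99% and 10.4%, OySyNyK cover 5.43%, 5.11% and 5.70%, and iPSC cover 11.7%. Here iPSC peaks filled as much of the window as OSNK peaks at D1. On chromosome 4, from 53200001, OSNK cover was 19.1%, 24.0% and 20.1%, OySyNyK cover 12.0%, 8.41% and 7.79%, MEF cover 9.72% and iPSC cover 1.61%. Its region at positions 53218800 to 53220132 scored 318, 271 and 63.1, and that at 53209226 to 53210418 scored 177, 225 and 136. In the 6 windows together OSNK cover was above OySyNyK cover on each day, by 2.23 to 34.3 percentage points. The window on chromosome 2 was chosen for its excess of OSNK over OySyNyK cover, and the others for their OSNK-only regions. The choice thus favours this direction in every window, and the direction is no independent result. It does not fix the direction in the others, where OSNK-only regions gave 14.1% to 37.1% of the OSNK cover. On chromosome 19 at D3 they gave 14.3% of it, and OSNK cover was 30.3 percentage points above OySyNyK cover.

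**Figure D5:**
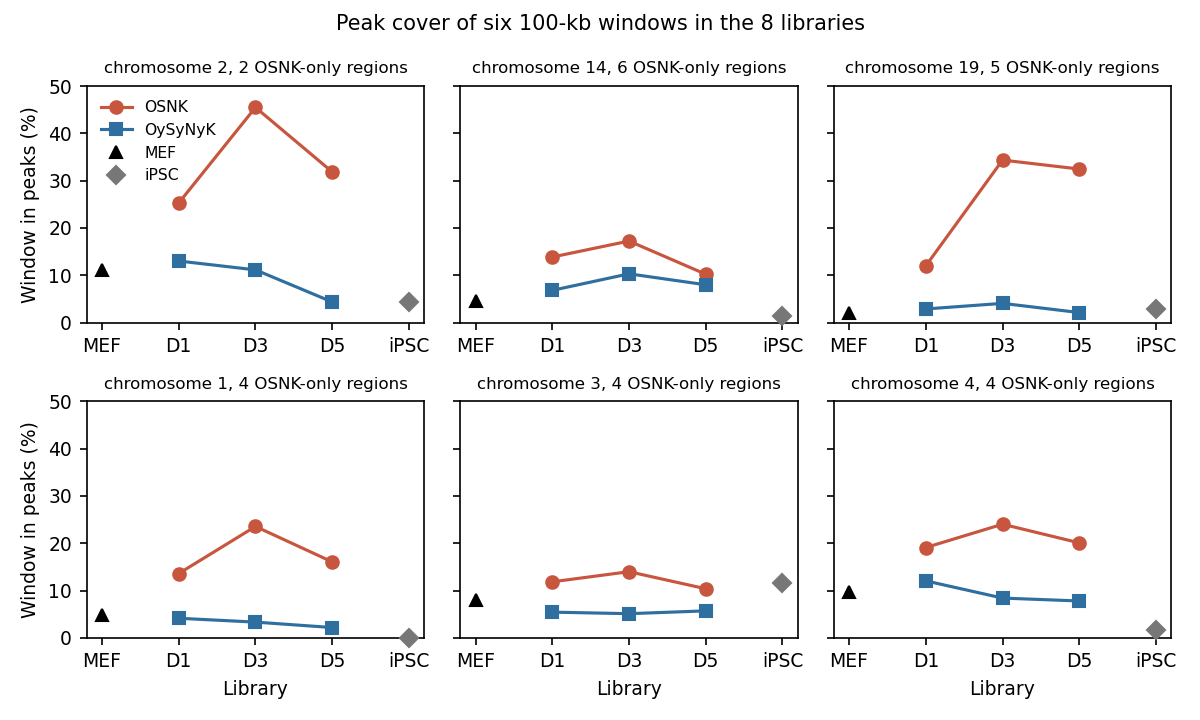
Percentage of each 100-kb window covered by peaks in MEF, in the intermediates of both methods by day, and in iPSC, for the window on chromosome 2 and 5 other windows with the most OSNK-only regions; 1 library per point. OSNK reaches 45.5% on chromosome 2 and 34.3% on chromosome 19 at D3. OySyNyK lies below OSNK at each day in each window, a direction that the choice of the windows favours.

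In 4 of the 5 widest OSNK-only regions the D3 peaks were the longest. On chromosome 2, positions 165634643 to 165638762 spanned 4120 bp, all of it one D3 peak with a score of 286, while the D1 peak of 698 bp scored 55.1 and the D5 peak of 2188 bp scored 199. No base there was covered on all 3 days. A further one of the 5 widest, at positions 52736264 to 52740044 on chromosome 2, lay less than 100 kb from the window described above and scored 197, 282 and 148. It was 3781 bp wide, and its nearest excluded peak, in MEF, was 2188 bp away.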

How the data were processed

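The values are the authors' deposited peak lists, 1 per library, with a score for each peak. Per the submitters' processing notes, Bowtie and MACS were used. No source used here gives a version, a setting or a control. The lowest deposited score was 50 in each list. The notes name hg18 and NCBI36, which are human, whereas the lists hold mouse chromosomes 1 to 19 and X. Peaks lay beyond the last GRCm38 gene on 10 of 20 chromosomes, so the assembly is another one (by general knowledge mm9). Coordinates are the lists' own, counted from 1. No annotation or sequence of that assembly was used here, so genes, sequence features and sequences, planned for the case that one was given, were left out.

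The merging used Python (3.11.15) with pandas 2.3.3 and numpy 2.4.6, and intervals came from scipy 1.17.1. bedtools 2.31.1 gave the same 222732 regions and 3717 members. On simulated lists of 20000 sites, 296 of 296 true members were found. Peaks of a simulated site always overlapped and sites never merged, so this checked the code and not closely spaced peaks. A region's score in a list is that of its best peak there, a gap is counted in bases between edges, and a region belongs to the 100-kb window of its midpoint. Samples were grouped by title.

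The rule for members, the lists and the settings were chosen with earlier results of these data known. Named regions are those in the chromosome 2 window, the members of the 5 other windows with the most members (ties by the sequence they cover), the 10 with the highest weakest-day score, the 5 largest and 5 smallest D5 to D1 ratios among members reaching 100 on a day, the 5 nearest to excluded peaks, the 5 regions just outside the rule and the 5 widest. Only some of each are printed. Alternatives were an overlap of 50% of the region, only peaks scoring 100 or more, lists shortened to the best 54938 peaks (equal numbers of peaks), 500-bp peaks, peaks within 1 kb joined, no excluded peak within 1 kb, and autosomes only. Equal numbers of 500-bp peaks, bins of D1 score and of weakest-day score, 1-Mb windows, neighbours and the effect of these settings on chromosome shares and named windows were added after seeing the data. Figures were drawn with matplotlib 3.10.9.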

Additional observations from a re-analysis of the deposited data

Results flagged for a closer look

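In all 6 windows described, peak cover changed in opposite directions from D1 to D5 with the 2 methods. Each direction rests on 1 library per day, and the difference was not tested. On chromosome 19, D5 minus D1 cover was 20.5 percentage points with OSNK and -0.763 with OySyNyK. On chromosome 2 it was 6.56 and -8.65, on chromosome 1 it was 2.46 and -1.96, and on chromosome 4 it was 0.982 and -4.25. In these 4 windows OSNK went up and OySyNyK down. On chromosome 14 the values were -3.63 and 1.18, and on chromosome 3 they were -1.47 and 0.27, in the reverse order. The D5 list of OySyNyK was the shortest intermediate list, with 70592 peaks, and its part in these values was not tested. From D1 to D5 the cover of the whole list went from 91.9 to 70.2 Mb with OSNK. With OySyNyK it went from 76.9 to 57.6 Mb, so cover at large fell with both methods. How many other 100-kb windows changed in opposite directions was not computed.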

How the results depend on the processing

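No paired analysis was possible because each group has 1 library and the groups share a single replicate number, so no replicate could be left out. The 3 days match the methods by time, but a region is chosen over all 3 days together, so no day gives an independent value. Sequencing depth is unknown, so absence of a peak is not absence of 5hmC. How many OSNK-only regions there are, and which ones, depended on the threshold: 349 of the 3717 were still members with a score of at least 100, 677 with equal numbers of peaks, 2479 with peaks joined within 1 kb, 2674 with no excluded peak within 1 kb, 2677 with an overlap of 50% and 3597 with 500-bp peaks. OSNK-only regions outnumbered the mirrored ones in each setting, by 2.20 (equal numbers of 500-bp peaks) to 4.39. The iPSC list, titled with the OySyNyK factors, was among the excluded lists in each setting.

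With a score of at least 100 there were 1644 members and 400 mirrored regions, the median width was 1247 bp, median scores were 168, 172 and 135 at D1, D3 and D5, and 9.25% were 1.5 times higher and 32.5% lower at D5. Of these, 20.7% were in windows with 2 or more and 0 in windows with 5 or more, 18.5% had an excluded peak within 1 kb, and the chromosome 13 share was 12.996%. With equal numbers of peaks the values were 1508 and 592 regions, 1147 bp, scores of 165, 142 and 106, 3.05% higher and 54.2% lower, 14.99% and 0 in such windows, 25.9% near excluded peaks, and shares of 5.02% on chromosome 11 and 7.50% on chromosome 13. In that setting 62.9% of all regions on the 3 OSNK days were 1.5 times lower and 5.19% higher. The members' share with a higher score thus lay below the background and no longer close to it. The OSNK D1 list was cut there at a higher score (110.18) than the OSNK D5 list (72.49). These shares are therefore not comparable with those of the full lists. Equal numbers of 500-bp peaks gave 1522 members, 656 bp, scores of 164, 141 and 105, 2.96% higher and 54.2% lower, 15.6% in windows with 2 or more, 23.3% near excluded peaks and 7.71% on chromosome 13. An overlap of 50% gave 952 bp, scores of 109, 102 and 87.6, 32.7% and 0.907% in such windows, 51.3% near excluded peaks, and 10.6% and 15.4% on chromosomes 11 and 13. With 500-bp peaks the median width was 627 bp. Joining peaks within 1 kb gave 654 mirrored regions, 1049 bp, a D3 score of 89.5, 22.0% in windows with 2 or more, and 4.70% and 8.43% on chromosomes 11 and 13. Asking for no excluded peak within 1 kb gave 609 mirrored regions, 23.0% in windows with 2 or more, and 3.88% and 7.55%. The last settings leave 0 members near excluded peaks by construction, and 0 in the chromosome 2 window. The chromosome 13 share was above that of chromosome 11 in each setting, with overlapping intervals for both kinds of equal numbers. The cause of the other differences was not tested.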

Other observations

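Counted over 1-Mb windows, a choice made after seeing the data, some stretches of the genome were rich in OSNK-only regions. Among 1375 windows with at least 10 regions on the 3 OSNK days, the median share of OSNK-only regions was 7.14%, 242 windows had none, and 6 were above 40%. The highest was on chromosome 6 from 93000001 to 94000000, where 10 of 18 regions (55.6%) were OSNK-only. They were of modest strength: positions 93299859 to 93300659 scored 155, 111 and 104, positions 93768041 to 93769083 scored 52.9, 77.4 and 122, and positions 93936218 to 93937234 scored 72.0, 78.6 and 132. Next to them stood strong regions called by both methods, such as positions 93600223 to 93601234, with D1 scores of 532 with OSNK and 499 with OySyNyK. Of the 131 regions of that window, 55 were found with OSNK alone and 14 with OySyNyK alone. OSNK peaks covered 3.50%, 4.81% and 3.95% of it, and OySyNyK peaks 1.64%, 1.49% and 1.53%. The window on chromosome 1 from 57000001 to 58000000 held 11 of 35 (31.4%), with 56 regions found with OSNK alone and 4 with OySyNyK alone. It also held one of the 7 runs of 3 OSNK-only regions with no other region between them, whose last region, at positions 57864739 to 57866349, scored 412, 200 and 156. Runs of 2 numbered 107, and no run was longer than 3.

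A set of 175 OSNK-only regions (4.71%) met the rule in each of 7 settings, all those tried except autosomes only, which removes X alone. Their median scores were 164, 170 and 133 at D1, D3 and D5, their median width was 1131 bp, and their nearest excluded peak lay at a median distance of 5143 bp. They lay on 19 chromosomes, and 5 of the 10 regions with the highest weakest-day score were among them, on chromosomes 5, 9, 8, 10 and 3. A further one, on chromosome 16 at positions 22177419 to 22179386, scored 201, 209 and 218. On chromosome 1, positions 30833095 to 30834373 scored 279, 212 and 197 and had no excluded peak within 26014 bp. The settings they met include a score of at least 100 and no excluded peak within 1 kb. Their high scores and larger gaps therefore follow from the choice. These regions were picked by the same lists that define them. Their number thus describes how the rule behaves and is no independent evidence for OSNK-specific 5hmC.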
